A study of Mus musculus with 6 samples.

Results

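This account is about the metalloproteases of the ADAM, ADAMTS and MMP families and their TIMP inhibitors in splenic endothelial cells of Apoe-knockout mice. The members were the genes of the deposited count table whose symbol begins with Adam, Adamts or Mmp followed by a digit, or is Timp1 to Timp4, with a count of 10 or more in at least 3 of the 6 libraries. Of 60 such symbols 58 met the count rule, out of 23203 named genes in the table. They were 20 ADAM, 16 ADAMTS, 18 MMP and 4 TIMP genes. Mmp7 and Mmp21 fell just outside the rule, with 16, 0, 2, 6, 0 and 24 counts and with 0, 7, 4, 10, 2 and 10 counts, in the order of control mice 1601, 1602 and 1608 and MLKL ASO mice 1603, 1604 and 1607. Just inside it lay Adam3, with 6, 6, 1, 11, 11 and 17 counts in the same order.

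All 6 mice lacked Apoe, the apolipoprotein that clears remnant lipoproteins, were fed a high cholesterol diet, and received an antisense oligonucleotide (ASO, a short nucleic acid strand that binds a matching RNA) for 8 weeks. In 3 mice the ASO was a control, and in 3 mice it was directed against Mlkl, the pseudokinase that opens the plasma membrane in necroptosis; these groups are labelled control and Mlkl KD. Each library came from 1 mouse, so the spread is that between animals. The sources used here do not give the age and sex of the mice, the strain beyond the Apoe knockout, or the way the endothelial cells were isolated.

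ADAMs are membrane-bound proteases that cut the outer parts of other membrane proteins off the cell surface, a process called shedding. ADAMTS proteases are secreted, bind to the extracellular matrix, and cut proteoglycans, procollagens and von Willebrand factor, while MMPs cut collagens, gelatin, laminins and many other matrix and cell surface proteins. TIMPs bind the zinc active site of these enzymes and block it. In the vessel wall these families are known for the turnover of the basement membrane, for the release of cytokines and receptors, and for the movement of blood cells through the endothelium.

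Library totals ranged from 59988846 to 87776706 estimated counts, and 1 CPM (counts scaled to a common library total by the TMM method) stood for 61.6 to 88.5 counts. The members together took 0.156% to 0.284% of the counts of a library. Mlkl itself measured 30.7, 31.2 and 38.0 CPM with the control ASO and 7.53, 5.81 and 3.74 CPM with the MLKL ASO, which goes with the labels (log2 fold change -2.55, standard error 0.27), although its edgeR adjusted p of 0.0655 did not pass. The defining endothelial markers were present in every library, with 279 to 414 CPM for Pecam1 and 107 to 236 CPM for Cdh5. Control mouse 1608 stood apart from the other libraries on the first principal component, at 92.0 against -44.25 to 16.27. Of the markers of other cells, all 7 T cell markers were lower with the MLKL ASO without overlap. They summed to 192 to 497 CPM with the control ASO and 131 to 160 CPM with the MLKL ASO. In the B cell, plasma cell, dendritic cell and reticular fibroblast lists 1 marker each did not overlap, as did 2 megakaryocyte markers. All neutrophil, macrophage, mural and erythroid markers overlapped between the groups. The part of other cells in the results below was not tested. Bulk libraries cannot tell fewer cells of a type apart from less RNA per cell.

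Against control mice, 0 of the 58 members passed edgeR's quasi-likelihood test at an adjusted p of 0.05, where 0.0101% of all 19745 genes tested did. At an unadjusted p under 0.05 there were 9 members, 6 higher and 3 lower in MLKL ASO mice; this is 15.5% of the members beside 11.8% of all genes. By direction it is 10.3% of the members higher beside 4.89% of all genes, and 5.17% lower beside 6.96%. The libraries of the groups did not overlap in 10 members, 7 higher and 3 lower with the MLKL ASO, or 17.2% beside 18.7% of all genes; 12.1% were higher beside 9.02%, and 5.17% lower beside 9.71%. The shares without regard to direction lay near those of all genes. Nothing is read from the higher shares, because Adam3 and Adam21, both among the higher members, reached 10 counts in MLKL ASO mice only, so the count rule itself favoured that direction for them. Without mouse 1601, 1603 or 1608, 20, 16 and 22 members did not overlap, beside 32.2%, 26.8% and 34.4% of all genes. The median log2 fold change of the members was 0.0023, with 29 above 0 and 29 below, and that of all genes was -0.0092. DESeq2, run as an alternative, called 4 members, Adam32 and Mmp27 as higher and Adamts2 and Adamts10 as lower, beside 2.42% of all genes with an adjusted p, and limma-voom with sample weights called 0 members beside 0.111% of all genes. The authors' deposited table also has 4 members past 0.05 (Adam32, Mmp27, Timp4 and Adamts2), where 1.81% of its rows with an adjusted p are.

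**Figure D1:**
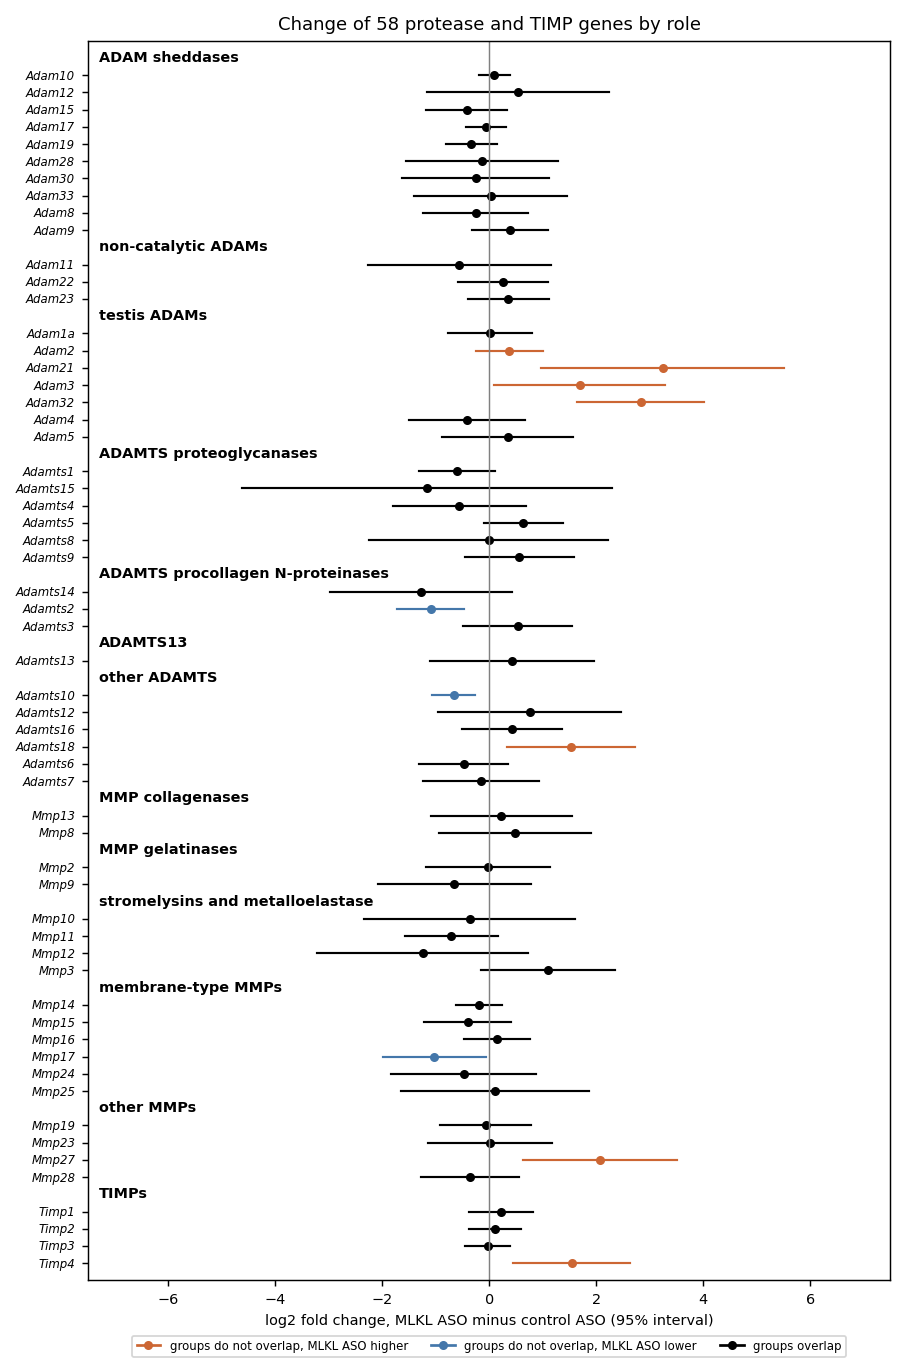
Log2 fold change of MLKL ASO over control ASO for the 58 members (points) with 95% intervals (lines) from edgeR, grouped by role; orange and blue mark genes whose 3 and 3 libraries do not overlap, higher and lower with the MLKL ASO. The widest intervals belong to genes with few counts such as Adamts15 and Adam21, and 7 genes are orange and 3 blue.

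Among the 10 ADAM sheddases with an active site, 0 passed the test, the libraries of all 10 overlapped between groups, and the median log2 fold change was -0.094, with 4 above 0 and 6 below. Adam10, which sheds Notch receptors and VE-cadherin, measured 200, 217 and 247 CPM with the control ASO and 241, 255 and 216 CPM with the MLKL ASO. The mice of both groups fill the same range. Its log2 fold change was 0.10 (standard error 0.13, 95% interval -0.20 to 0.39, edgeR adjusted p = 0.797). Adam17, the sheddase of tumour necrosis factor and its receptors, measured 70.3, 85.9 and 103 CPM with the control ASO and 77.9, 87.9 and 83.2 CPM with the MLKL ASO. The values of the MLKL ASO mice lie within those of the control mice, with a log2 fold change of -0.06 and an interval of -0.43 to 0.31 (edgeR adjusted p = 0.916).

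Adam15, an ADAM with an integrin-binding motif that endothelial cells make, measured 80.9, 87.4 and 181 CPM with the control ASO and 85.6, 70.2 and 105 CPM with the MLKL ASO. Mouse 1608 alone was high, and the log2 fold change of -0.42 (standard error 0.32, edgeR adjusted p = 0.641) turned to 0.05 without it. Adam8, a sheddase of leukocytes, measured 15.1, 7.82 and 4.85 CPM with the control ASO and 5.55, 8.38 and 9.44 CPM with the MLKL ASO. The control mice spanned the MLKL ASO mice, and its log2 fold change of -0.25 (edgeR adjusted p = 0.855) turned to 0.28 without mouse 1601. Adam9, Adam12, Adam19, Adam28, Adam30 and Adam33 had log2 fold changes from -0.33 (Adam19) to 0.54 (Adam12). Of these, Adam28 and Adam30 had at most 22.4 and 41 estimated counts in a library.

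The 3 ADAMs known as non-catalytic, which act as adhesion and synaptic proteins, were measured at low levels. Adam22 lay between 1.49 and 3.26 CPM and Adam23 between 1.39 and 2.71 CPM over the 6 mice, and Adam11 had means of 0.637 CPM with the control ASO and 0.434 CPM with the MLKL ASO. Their log2 fold changes were 0.26, 0.36 and -0.56, and the groups overlapped in each.

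Of the ADAMs known from testis and epididymis, where several act in the binding of sperm to the egg, 7 measured members were placed in this role. Of these 7, 4 were higher in each MLKL ASO mouse than in any control mouse. Of these 4, Adam3 and Adam21 met the count rule through the MLKL ASO mice alone, so this count is a description and is not set against the share of all genes. The roles were also assigned with earlier results of these data known, so the counts depend on that grouping. Adam30, placed with the sheddases for its active site, is not counted here. Its log2 fold change was -0.25, with overlapping groups. The log2 fold change was above 0 in 6 of the 7 members, with a median of 0.38 over all 7, and below 0 in Adam4 (-0.41, overlapping groups). Adam32 measured 0.0992, 0.145 and 0.312 CPM with the control ASO and 1.12, 1.37 and 1.46 CPM with the MLKL ASO, from 8 to 22 counts and from 69 to 129 counts. The lowest MLKL ASO mouse stood above the highest control mouse by a wide gap. The means were 0.185 ± 0.112 and 1.32 ± 0.175 CPM (SD, n = 3 each), which differ 7.11-fold, with a log2 fold change of 2.83 (standard error 0.51). It had the smallest p of the members but did not pass in edgeR (adjusted p = 0.191). DESeq2 called it as higher (adjusted p = 2.04e-05), and the authors' deposited table gives a log2 fold change of 2.66 with an adjusted p of 0.0204. Without single mice its log2 fold change ranged from 2.51 to 3.42 and the edgeR adjusted p from 0.0737 to 0.631.

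Adam21 was counted 3, 1 and 7 times in control mice and 61, 14 and 20 times in MLKL ASO mice. Mouse 1603 held most of these counts, and the log2 fold change of 3.24 (standard error 0.97, edgeR adjusted p = 0.342) was 2.12 without that mouse, 4.19 without mouse 1608 and 2.78 without mouse 1602. Adam3, given above by its counts, had a log2 fold change of 1.69 (standard error 0.68, edgeR adjusted p = 0.405), whereas the authors' deposited table has the opposite sign for it, -0.34 with an adjusted p of 0.976. At such counts the size of either difference is poorly set. Adam2, fertilin beta, measured 1.38, 1.26 and 1.39 CPM with the control ASO and 1.95, 1.53 and 1.76 CPM with the MLKL ASO, a log2 fold change of 0.38 (edgeR adjusted p = 0.610).

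In the RefSeq table of GRCm38.p6, Adam3, Adam5, Adam32 and Adam9 are neighbours in this order on chromosome 8. Of these, Adam3 and Adam32 separated the groups, and Adam5 and Adam9 did not. Adam5, between Adam3 and Adam32, measured 0.223, 0.302 and 0.312 CPM with the control ASO and 0.195, 0.528 and 0.339 CPM with the MLKL ASO, with overlap. Adam9, a widely made sheddase on the other side of Adam32, measured 43.8, 36.0 and 82.8 CPM with the control ASO and 63.1, 69.5 and 80.6 CPM with the MLKL ASO, a log2 fold change of 0.39 (edgeR adjusted p = 0.644). Its control mouse 1608 was the highest of all 6. The GENCODE M21 annotation has no exon shared between Adam32 and another gene, whereas 63.7% of the exon bases of Adam1a, which measured 1.40 to 2.51 CPM, are shared with other genes, so its value is uncertain.

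Of the 6 ADAMTS proteoglycanases, which cut aggrecan, versican and related proteins, 0 passed and all overlapped between groups, with a median log2 fold change of -0.28. Adamts1 measured 108, 148 and 263 CPM with the control ASO and 104, 114 and 125 CPM with the MLKL ASO. Its neighbour on chromosome 16, Adamts5, a main aggrecanase of cartilage, measured 70.0, 87.5 and 162 CPM with the control ASO and 156, 136 and 205 CPM with the MLKL ASO. These adjacent genes had log2 fold changes of opposite sign, -0.60 for Adamts1 (standard error 0.30, edgeR adjusted p = 0.490) and 0.64 for Adamts5 (standard error 0.32, edgeR adjusted p = 0.474), and neither passed. Control mouse 1608 held the highest Adamts1 level and the highest Adamts5 level of its group. Without it the log2 fold change was -0.16 for Adamts1 and 1.07 for Adamts5, and without mouse 1601 it was -0.87 and 0.39.

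Adamts9, a versican-cutting protease made by endothelial cells, measured 5.35, 8.02 and 16.2 CPM with the control ASO and 10.2, 13.0 and 20.3 CPM with the MLKL ASO. Both groups spread widely, and its log2 fold change was 0.56 (edgeR adjusted p = 0.646), with 1.11 without mouse 1608 and 0.23 without mouse 1607. Adamts4 measured 5.84, 6.76 and 24.5 CPM with the control ASO and 7.71, 9.01 and 8.52 CPM with the MLKL ASO, so that mouse 1608 again stood apart. Adamts8 and Adamts15 had at most 58 and 36 counts. Adamts15 had 0 counts in mice 1607 and 1608, which allows up to 0.0339 and 0.0426 CPM, counting error only.

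Adamts2, a procollagen N-proteinase that trims the ends of fibrillar procollagens, measured 4.36, 5.61 and 3.92 CPM with the control ASO and 1.90, 1.93 and 2.69 CPM with the MLKL ASO. Each MLKL ASO mouse lay below each control mouse. The means were 4.63 ± 0.878 and 2.17 ± 0.446 CPM (SD, n = 3 each), a 2.13-fold difference with a log2 fold change of -1.09 (standard error 0.27). It did not pass in edgeR (adjusted p = 0.305), while DESeq2 called it as lower (adjusted p = 0.00778), and the authors' deposited table gives a log2 fold change of -1.12 with an adjusted p of 0.00968. Of the other procollagen N-proteinases, Adamts14 measured 1.11, 0.857 and 0.284 CPM with the control ASO and 0.552, 0.106 and 0.282 CPM with the MLKL ASO (log2 fold change -1.27, edgeR adjusted p = 0.536), and Adamts3 had a log2 fold change of 0.53. The 3 genes of this role therefore did not share a direction. Their fibrillar substrates are in the matrix list described further on.

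Because Adamts2 had the smallest p among the lower members, the 60 bases before its RefSeq start site are shown, at chr11:50602025-50602084 on the plus strand of GRCm38.p6. Capitals mark the GC box letters GGGCGG, on either strand.
Adamts2: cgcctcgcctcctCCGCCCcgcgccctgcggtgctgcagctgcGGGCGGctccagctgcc
Of 34 members found in the RefSeq promoter table, 19 (55.9%) hold GGGCGG on either strand within 250 bases before a start site, beside 35.4% of the 27025 genes in that table. Such a match describes letters only.

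Adamts10, which binds fibrillin microfibrils, measured 21.2, 18.4 and 24.4 CPM with the control ASO and 13.0, 15.2 and 12.2 CPM with the MLKL ASO. The groups did not overlap, and the means of 21.3 ± 3.03 and 13.5 ± 1.56 CPM (SD, n = 3 each) differed 1.58-fold. Its log2 fold change was -0.66 (standard error 0.17, edgeR adjusted p = 0.319). DESeq2 called it as lower (adjusted p = 0.0302), but in the authors' deposited table it has a log2 fold change of -0.52 and an adjusted p of 0.135. Adamts18 measured 0.347, 0.869 and 1.06 CPM with the control ASO and 3.35, 1.60 and 1.63 CPM with the MLKL ASO, higher in each MLKL ASO mouse, with a log2 fold change of 1.53 (standard error 0.51, edgeR adjusted p = 0.365). Without mouse 1603, the highest, its log2 fold change was 1.07. Adamts6, Adamts7, Adamts12 and Adamts16 overlapped between the groups, with log2 fold changes from -0.48 (Adamts6) to 0.76 (Adamts12).

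Adamts13, which cuts von Willebrand factor and is known mainly from liver, was barely detected, at 0.607, 0.229 and 0.142 CPM with the control ASO and 0.617, 0.453 and 0.260 CPM with the MLKL ASO. The groups overlapped (log2 fold change 0.43, 95% interval -1.10 to 1.97, edgeR adjusted p = 0.836). Its substrate gene Vwf measured 18.5, 17.8 and 5.14 CPM with the control ASO and 19.7, 43.4 and 28.9 CPM with the MLKL ASO without overlap (log2 fold change 1.15, edgeR adjusted p = 0.426). Megakaryocytes also make Vwf, and the 7 megakaryocyte markers summed to 1005, 1411 and 85.0 CPM with the control ASO and 1255, 2645 and 1830 CPM with the MLKL ASO; their part in the Vwf value was not tested.

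**Figure D2:**
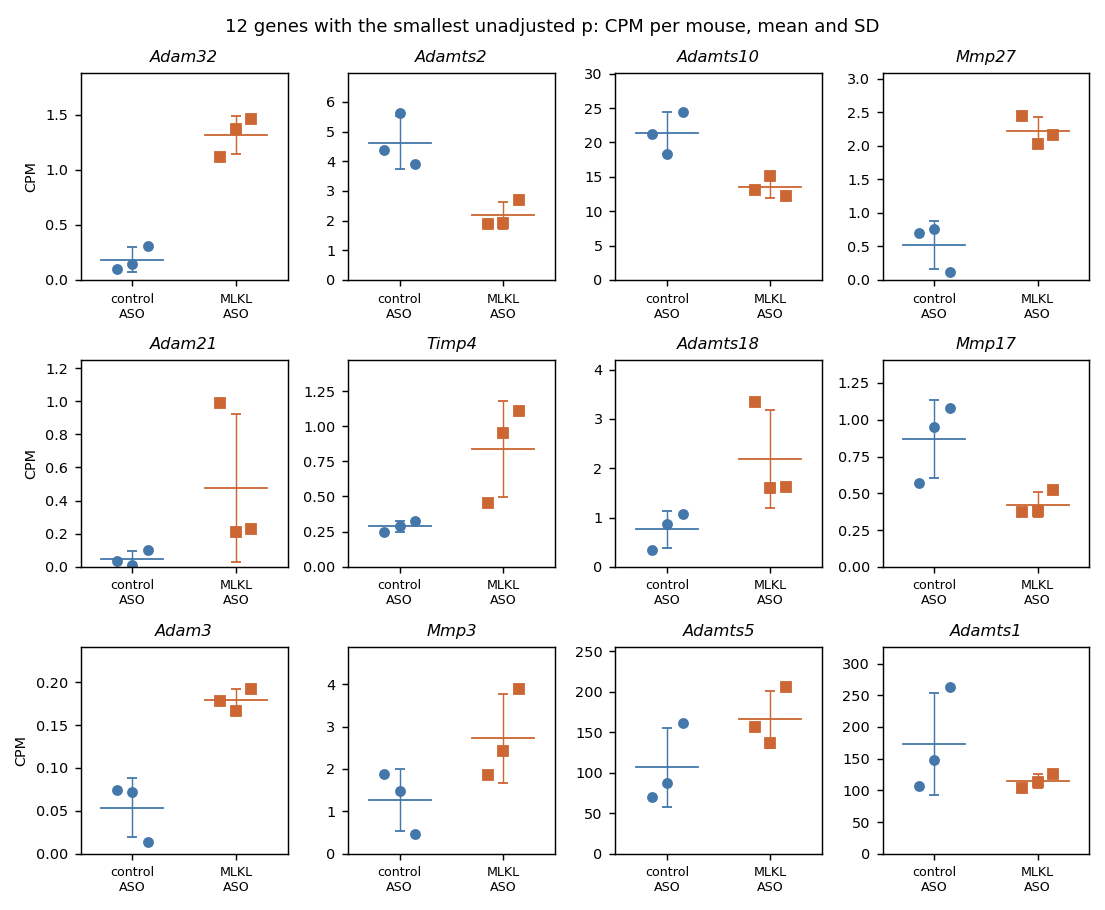
CPM (vertical axes, from 0) of the 12 members with the smallest unadjusted p, in control ASO mice (circles) and MLKL ASO mice (squares), with the mean (long bar) and SD (error bar) of 3 mice each. The groups of the first 9 genes, from Adam32 to Adam3, do not overlap; those of Mmp3, Adamts5 and Adamts1 do.

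The collagenases Mmp8 and Mmp13 and the gelatinases Mmp2 and Mmp9 overlapped between the groups. Mmp9, gelatinase B, measured 15.5, 5.94 and 3.29 CPM with the control ASO and 2.47, 6.34 and 6.94 CPM with the MLKL ASO. Mouse 1601 alone was high, and the log2 fold change of -0.65 (standard error 0.61, edgeR adjusted p = 0.710) turned to 0.17 without it. Mmp8, the neutrophil collagenase, measured 15.3, 8.34 and 3.85 CPM with the control ASO and 4.74, 19.2 and 14.7 CPM with the MLKL ASO, a log2 fold change of 0.49 (edgeR adjusted p = 0.791). Mmp25, a membrane-anchored leukocyte MMP, measured 1.36, 0.290 and 0.312 CPM with the control ASO and 0.292, 1.06 and 0.768 CPM with the MLKL ASO.

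These genes, with Adam8, are known from neutrophil granules and surfaces, and neutrophil markers were present in each library. The 11 markers of the neutrophil list, all detected, summed to 1925, 524 and 252 CPM with the control ASO and to 749, 2081 and 1197 CPM with the MLKL ASO. Mice 1601, 1604 and 1607 held both the 3 highest marker sums and the 3 highest levels of Mmp8, Mmp9, Mmp25 and Adam8. At the low end they differed. The 2 lowest marker sums were those of mice 1608 and 1602. Mice 1608 and 1603 held the 2 lowest levels of Mmp8, Mmp9 and Adam8, and mice 1602 and 1603 those of Mmp25. The part of neutrophils in these values was not tested.

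Mmp2, gelatinase A of fibroblasts and other mesenchymal cells, measured 9.12, 7.87 and 2.17 CPM with the control ASO and 6.67, 7.55 and 4.64 CPM with the MLKL ASO. Mouse 1608 was the lowest, as it was for Mmp23 (7.77, 6.68 and 1.94 CPM with the control ASO, 6.89, 5.87 and 3.90 CPM with the MLKL ASO), Adam12 and Adam33. The 8 mural cell markers summed to 135, 118 and 36.2 CPM with the control ASO and 66.9, 68.6 and 71.1 CPM with the MLKL ASO, and the 10 reticular fibroblast markers to 551, 571 and 210 CPM and to 419, 551 and 436 CPM, with mouse 1608 the lowest in both. Their part in these values was not tested. The log2 fold change of Mmp2 was -0.02 (95% interval -1.19 to 1.14, edgeR adjusted p = 0.992) and turned to 0.31, 0.15 and 0.16 without mouse 1601, 1602 or 1607.

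**Figure D3:**
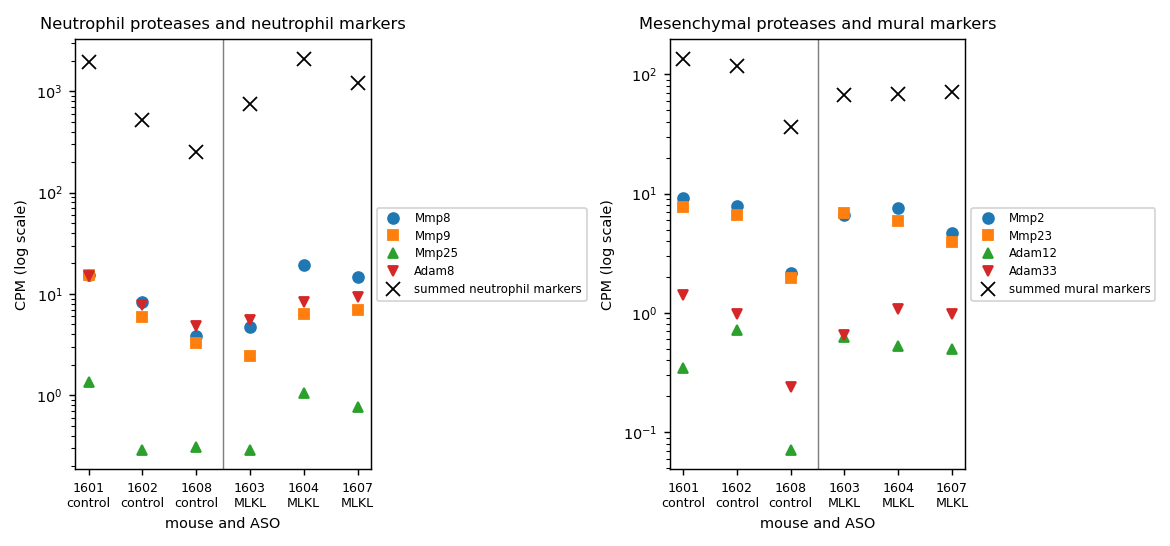
CPM on a log axis in each mouse for 4 proteases known from neutrophils beside the summed neutrophil markers (left), and for 4 proteases known from mesenchymal cells beside the summed mural markers (right); crosses are the marker sums. Neutrophil marker sums run from 252 in mouse 1608 to 2081 in mouse 1604, and mouse 1608 has the lowest value of each series on the right.

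Mmp27, an MMP related to the stromelysins, measured 0.694, 0.760 and 0.114 CPM with the control ASO and 2.45, 2.02 and 2.17 CPM with the MLKL ASO. Each MLKL ASO mouse was above each control mouse, at 134 to 192 counts against 8 to 63. The means were 0.523 ± 0.356 and 2.21 ± 0.218 CPM (SD, n = 3 each), a 4.24-fold difference with a log2 fold change of 2.07 (standard error 0.62, edgeR adjusted p = 0.342). DESeq2 called it as higher (adjusted p = 0.0320), and the authors' deposited table gives a log2 fold change of 2.07 with an adjusted p of 0.0248. Control mouse 1608 was the lowest, and without it the log2 fold change was 1.61 (edgeR adjusted p = 0.121).

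In the RefSeq table Mmp27 and Mmp8 are neighbours on chromosome 9, as are Mmp8 and Mmp10 and as are Mmp12 and Mmp13, and Mmp3 lies in the same run of MMP genes. Of these only Mmp27 separated the groups. Mmp3, stromelysin 1, measured 1.88, 1.47 and 0.468 CPM with the control ASO and 1.85, 2.43 and 3.90 CPM with the MLKL ASO, with overlap and a log2 fold change of 1.09 (standard error 0.53, edgeR adjusted p = 0.469). Mmp10, stromelysin 2, measured 0.719, 0.603 and 0.0426 CPM with the control ASO and 0.438, 0.347 and 0.282 CPM with the MLKL ASO. Mmp12, the macrophage metalloelastase, measured 2.54, 0.965 and 0.284 CPM with the control ASO and 0.162, 0.664 and 0.768 CPM with the MLKL ASO, a log2 fold change of -1.24 (standard error 0.84, edgeR adjusted p = 0.603). Mouse 1601 was the highest for Mmp12 and for the 9 macrophage markers, which summed to 1297, 549 and 527 CPM with the control ASO and 963, 733 and 802 CPM with the MLKL ASO. The part of macrophages in the Mmp12 value was not tested. Mmp13, a collagenase, had 13 to 31 counts.

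MMP promoters are known for elements that bind the AP-1 factors, so the letters TGANTCA, which read the same on both strands, were searched in the 250 bases before each RefSeq start site. They were present in 5 of 34 members (14.7%) beside 7.82% of the genes in that table. Of the 6 MMP members on chromosome 9 in the table, 4 hold them, and these sites are shown with 15 bases on each side, with the match in capitals, followed by the last 60 bases before the start site of Mmp27, whose window does not hold these letters. All are on the plus strand of GRCm38.p6, at chr9:7445761-7445797 (Mmp3), chr9:7502264-7502300 (Mmp10), chr9:7347315-7347351 (Mmp12), chr9:7272464-7272500 (Mmp13) and chr9:7571336-7571395 (Mmp27).
Mmp3: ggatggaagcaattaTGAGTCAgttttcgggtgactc
Mmp10: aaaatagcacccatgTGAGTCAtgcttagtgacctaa
Mmp12: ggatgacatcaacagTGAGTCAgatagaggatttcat
Mmp13: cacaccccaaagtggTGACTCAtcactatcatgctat
Mmp27: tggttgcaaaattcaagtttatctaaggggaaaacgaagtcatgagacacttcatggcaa
The 4 genes with these letters had log2 fold changes of 1.09, -0.36, -1.24 and 0.23, so they did not share a direction, and each overlapped between the groups.

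Of the 6 membrane-type MMPs, 0 passed and 4 had a log2 fold change below 0. Mmp14 (MT1-MMP), which activates pro-MMP2 at the cell surface and cuts fibrillar collagen, measured 41.4, 64.9 and 61.7 CPM with the control ASO and 52.2, 47.5 and 47.3 CPM with the MLKL ASO. The MLKL ASO mice lay inside the control range, with a log2 fold change of -0.19 and an interval of -0.62 to 0.23 (edgeR adjusted p = 0.712). Mmp16 (MT3-MMP) measured 46.4, 53.7 and 95.1 CPM with the control ASO and 76.3, 74.8 and 65.2 CPM with the MLKL ASO. Mmp17 (MT4-MMP), which is held in the membrane by a lipid anchor, measured 0.570, 0.953 and 1.08 CPM with the control ASO and 0.373, 0.378 and 0.520 CPM with the MLKL ASO. This was the third member that was lower in each MLKL ASO mouse, with a log2 fold change of -1.03 (standard error 0.41, edgeR adjusted p = 0.404). Mmp15, Mmp24, Mmp11, Mmp19 and Mmp28 overlapped between the groups, with log2 fold changes from -0.70 (Mmp11) to -0.06 (Mmp19).

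The 4 TIMP genes had a median log2 fold change of 0.17, and 0 passed. Timp3, the TIMP that binds to the matrix and also blocks ADAM17 and ADAMTS proteases, measured 741, 855 and 1132 CPM with the control ASO and 764, 918 and 993 CPM with the MLKL ASO. Its groups fill the same range, with a log2 fold change of -0.03 and a 95% interval of -0.45 to 0.40 (edgeR adjusted p = 0.973). Timp2, which takes part in pro-MMP2 activation with MT1-MMP, measured 89.1, 128 and 155 CPM with the control ASO and 139, 118 and 146 CPM with the MLKL ASO (log2 fold change 0.11, edgeR adjusted p = 0.873). Timp1, an inhibitor induced in inflammation, measured 38.6, 50.9 and 76.6 CPM with the control ASO and 69.8, 52.9 and 71.3 CPM with the MLKL ASO (log2 fold change 0.22, 95% interval -0.37 to 0.82, edgeR adjusted p = 0.769). For each of these 3 inhibitors mouse 1601 was the lowest and mouse 1608 the highest library.

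Timp4 measured 0.248, 0.290 and 0.326 CPM with the control ASO and 0.455, 0.951 and 1.11 CPM with the MLKL ASO, higher in each MLKL ASO mouse. The means of 0.288 ± 0.0392 and 0.838 ± 0.341 CPM (SD, n = 3 each) differed 2.91-fold, with a log2 fold change of 1.54 (standard error 0.47, edgeR adjusted p = 0.342; DESeq2 adjusted p = 0.0839). The authors' deposited table gives a larger log2 fold change of 2.20 with an adjusted p of 0.00115. Timp4 lies inside Syn2, a synapsin gene, on the opposite strand in GENCODE M21, and shares 1.5% of its exon bases with it. Syn2, looked up for this reason after the Timp4 values were seen, measured 4.52, 6.07 and 4.95 CPM with the control ASO and 9.42, 11.9 and 11.9 CPM with the MLKL ASO, without overlap (log2 fold change 1.09, standard error 0.20, edgeR adjusted p = 0.211). The library kit was directional, but the sources used here do not give the strand setting of the quantification, and the part of Syn2 reads in the Timp4 value was not tested. Timp1 and Timp3 likewise lie inside Syn1 and Syn3 on the opposite strand, where 21.3% of the Timp3 exon bases are shared. Syn1 (0.133 to 1.21 CPM) and Syn3 (1.26 to 3.50 CPM) overlapped between the groups.

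Levels of different genes were set side by side only per length, as CPM per kilobase of merged exons in GENCODE M21, which need not be the annotation the authors used. On this scale the highest members were Timp3 with a median of 109 (91.0 to 139 over the 6 mice), Timp1 with 69.1 (43.5 to 86.3), Adam10 with 46.6 (40.6 to 51.8), Timp2 with 34.2 (22.9 to 39.9) and Adamts1 with 22.6 (19.6 to 49.7). Timp3 lay above Timp1, and Adam10 above Timp2, without overlap. The ranges of Timp1 and Adam10 overlapped, but within each of the 6 mice Timp1 was the higher. Those of Timp2 and Adamts1 also overlapped, and Timp2 was the higher in each mouse except 1608 (39.9 against 49.7). The exon bases that Timp3 shares make its level less certain. Among the MMPs, Mmp14 with a median of 8.37 and Mmp16 with 8.07 were highest, and neither was above the other in every mouse. Timp4 lay at 0.0663 (0.0421 to 0.188), far below the other TIMPs. The 10 genes that separated the groups had medians from 0.0409 (Adam3) to 2.03 (Adamts10). Many members that overlapped lay in the same range, and the lowest member, Adamts15 at 0.0126, overlapped too.

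**Figure D4:**
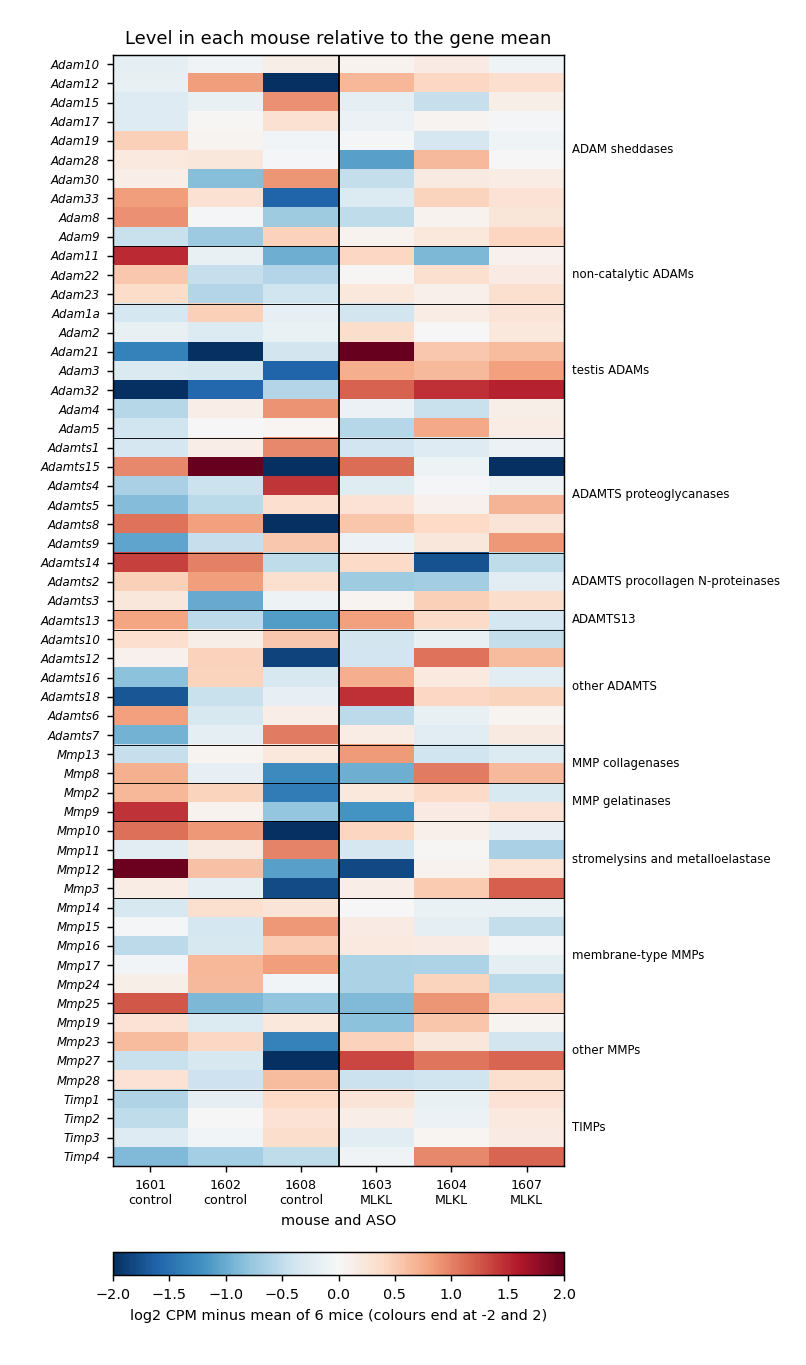
Level of each of the 58 members in each mouse, as log2 CPM (prior count 2) minus the mean of the 6 mice, grouped by role; red is above and blue below the mean of the gene, and the vertical line divides control from MLKL ASO mice. Mouse 1608 carries many of the deepest blue cells, among them Adam12, Mmp10, Adamts8 and Mmp27.

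Control mice 1601 and 1608 held most of the extreme values. Mouse 1601 was the highest library for 15 members and the lowest for 17. These are 25.9% and 29.3% of the members beside 21.3% and 19.8% of all genes. Mouse 1608 was the highest for 17 and the lowest for 16, or 29.3% and 27.6% of the members beside 21.9% and 24.3% of all genes. Mouse 1608 was highest for Adamts1, Adamts4, Adamts7, Adam15, Mmp15, Mmp16 and Timp1 to Timp3. It also had the highest sum of the 10 endothelial markers, 3129 CPM against 1732 to 2464 CPM in the other mice, and of the 5 sinusoid markers, 1413 CPM against 820 to 1361 CPM. The part of the cell makeup in these values was not tested.

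Genes that act on or with these proteases were read from 5 lists; over all genes, an unadjusted p under 0.05 went with a higher value in 4.89% and a lower value in 6.96%, and 51.2% had a log2 fold change below 0. Among 21 tested regulators, such as the convertases that remove the propeptide and the tetraspanins that carry ADAM10, 0 passed the adjusted threshold, 4 had an unadjusted p under 0.05 (2 higher and 2 lower), and the median log2 fold change was -0.16. Adamtsl3, an ADAMTS-like protein with no protease domain, measured 0.0992, 0.326 and 0.241 CPM with the control ASO and 0.666, 0.725 and 0.938 CPM with the MLKL ASO (log2 fold change 1.80, edgeR adjusted p = 0.342). Tspan15, a tetraspanin partner of ADAM10, measured 69.1, 137 and 89.7 CPM with the control ASO and 64.7, 56.0 and 33.6 CPM with the MLKL ASO (log2 fold change -0.94, edgeR adjusted p = 0.365). Neither pair of groups overlapped.

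Of 28 tested membrane proteins that ADAM10 or ADAM17 are known to shed, 24 had a log2 fold change below 0, with a median of -0.17 beside -0.0092 for all genes. In this list 0 passed the adjusted threshold, and the 3 with an unadjusted p under 0.05 were all lower. Areg, a ligand of the EGF receptor, measured 2.35, 1.85 and 0.681 CPM with the control ASO and 0.244, 0.559 and 0.779 CPM with the MLKL ASO (log2 fold change -1.62, edgeR adjusted p = 0.380). Sdc4, a cell surface heparan sulphate proteoglycan, measured 160, 177 and 120 CPM with the control ASO and 109, 84.6 and 123 CPM with the MLKL ASO (log2 fold change -0.53, edgeR adjusted p = 0.380). Both overlapped between the groups. All 13 T and B cell markers also had a log2 fold change below 0. Over single mice the sums did not go together. The sum of this list was highest in mouse 1608 (3466 CPM). There the T and B cell marker sums were the lowest of the control mice (192 and 879 CPM). The part of T and B cells in this list was not tested.

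Of 24 tested matrix proteins, 18 lay above 0 on the log2 scale and the median difference was 0.21. In this list 0 passed, and the 2 with an unadjusted p under 0.05 in edgeR were both higher. Of all genes, 4.89% had such a p with a higher value, and 11.8% in either direction. The groups did not overlap in 4 of the matrix genes, all higher, beside 9.02% of all genes that were higher without overlap. Thbs1, thrombospondin 1, measured 65.0, 67.7 and 57.2 CPM with the control ASO and 75.1, 145 and 107 CPM with the MLKL ASO (log2 fold change 0.78, edgeR adjusted p = 0.342). Within each group the megakaryocyte marker sums given with Vwf have the same order over the mice as Thbs1. Over all mice the order differs only between mice 1602 and 1603. Mouse 1602 had the higher sum (1411 against 1255 CPM) and less Thbs1 (67.7 against 75.1 CPM). In mouse 1608 the sum was 85.0 CPM, against 1005 CPM in mouse 1601, while Thbs1 was 57.2 against 65.0 CPM. All 7 of these markers had a log2 fold change above 0 (median 1.05, 0 with an unadjusted p under 0.05). Their part in Thbs1 and in the matrix list was not tested. Lum, the collagen-binding proteoglycan lumican, measured 0.508, 0.615 and 0 CPM with the control ASO and 2.47, 3.61 and 2.84 CPM with the MLKL ASO (log2 fold change 2.97, edgeR adjusted p = 0.361); the 0 in mouse 1608 allows up to 0.0426 CPM. Lum is also 1 of the 10 reticular fibroblast markers, whose sums are given with Mmp2. Thbs1 and Lum were higher in each MLKL ASO mouse than in any control mouse, whereas these marker sums overlapped between the groups. The fibrillar collagen genes Col1a1, Col1a2 and Col3a1, whose procollagens ADAMTS2 trims, had log2 fold changes of -0.25, 0.21 and 0.06, and their groups overlapped.

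In the plasminogen system, whose protease plasmin can activate MMPs, 0 of 9 tested genes passed, and 1 was higher at an unadjusted p under 0.05. This was Plau, the urokinase gene, at 0.496, 0.374 and 1.57 CPM with the control ASO and 1.33, 2.22 and 3.51 CPM with the MLKL ASO, with overlap through mouse 1608 (log2 fold change 1.54, edgeR adjusted p = 0.407). Anxa2, a cell surface receptor for plasminogen and its activator, measured 241, 252 and 270 CPM with the control ASO and 301, 272 and 366 CPM with the MLKL ASO without overlap (log2 fold change 0.30, edgeR adjusted p = 0.441). Among 4 tested proteases of related families 0 passed, and 0 had an unadjusted p under 0.05. Pappa and Tll1 had the smallest p of these, with log2 fold changes of 0.74 and 0.84 and overlapping groups.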

How the data were processed

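Bulk RNA sequencing libraries of splenic endothelial cells from 6 mice, 1 library each, were made with a directional mRNA kit per the labels' protocols. Per the submitters' processing notes, the tools were fastp 0.20.1, Salmon 1.3.0 and DESeq2; no source used here names the genome build, annotation or strand setting. The deposited table holds estimated counts per gene symbol, of which 4 symbols are numbers and not names. The authors' deposited comparison gives, per the file headers, a mean normalised signal, a log2 fold change with its standard error, a Wald score and p-values. Its direction was read from Mlkl, whose log2 fold change is -2.69 there.

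Estimated counts were rounded and fitted in R 4.3.3 with edgeR 4.0.16 (default expression filter, TMM, two-sided quasi-likelihood test, Benjamini-Hochberg adjustment over 19745 genes, threshold 0.05). Standard errors are the log2 fold change divided by the root of F. With 3 mice against 3 an exact two-sided permutation test cannot go below 0.1. Alternatives were RLE scaling, 2 other count filters, a robust fit, DESeq2 1.42.0, limma-voom with sample weights (limma 3.58.1) and leaving out each mouse. The fits were tested on simulated data. The members, roles and gene lists were chosen with earlier results of these data known. Values are given per mouse for Mlkl, for the 12 members with the smallest unadjusted p and for 13 well-known members whatever their result, with the 2 smallest p of each list; others are named for their role or because they were seen to bear on these. Promoter sequences are RefSeq's for GRCm38.p6, matched by symbol for 34 of 58 members.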

Additional observations from a re-analysis of the deposited data

How the results depend on the processing

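The count of genes past the threshold was 2 with edgeR, 527 with DESeq2 and 22 with limma-voom with sample weights, and lay between 0 and 19 when a mouse was left out. Members past it were 0 with edgeR and 4 with DESeq2. Their median log2 fold change was 0.0023, 0.10 with limma-voom, and -0.065 to 0.071 without single mice. Members without overlap were 10, and 11 to 22 without single mice, where fewer libraries make separation easier. The direction of the 12 members with the smallest p held in all 12 alternatives. These members were picked by p from the same counts, so this outcome was likely in advance and nothing is read from it. The authors' deposited table has the opposite sign for Adam3 (-0.34). Leaving out single mice turned 7 named members: log2 fold changes ranged from -0.55 to 0.28 (Adam8, without mice 1608 and 1601), -0.65 to 0.046 (Adam15, without 1601 and 1608), -0.21 to 0.088 (Adam17, without 1601 and 1608), -0.43 to 0.31 (Mmp2, without 1608 and 1601), -1.03 to 0.17 (Mmp9, without 1608 and 1601), -0.099 to 0.30 (Timp2, without 1601 and 1608) and -0.17 to 0.16 (Timp3, without 1601 and 1608). Mmp2 was 0.15 and 0.16 without mice 1602 and 1607, and Timp3 was 0.058 without mouse 1603 and 0.0060 with limma-voom. The cause was not tested. No paired analysis was possible because the mouse numbers do not recur between the groups. Depth limits Adam3, Adam5, Adam12, Adam21, Adam28, Adam30, Adamts8, Adamts12, Adamts13, Adamts15, Mmp10, Mmp13 and Mmp24, each with at most 61 counts in a library.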
